A study of Mus musculus with 2 samples.

Results

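The 10 genes Cd36, Msr1, Lpl, Plin2, Abca1, Abcg1, Apoe, Nr1h3, Lipa and Soat1, which handle the uptake, storage and efflux of lipid, were chosen by name as 10 of the 24785 genes listed in 2 tables of unique molecular identifier (UMI) counts, and all 10 were measured in both tables. Living CD45+ cells, the leukocytes, were sorted from lungs of C57BL/6N mice aged 10 to 16 weeks and analysed by single-cell RNA-seq, which captures the transcripts of each cell in a microwell. The BLM library held cells taken on day 15 after 50 µg of bleomycin (BLM), whose injury to lung tissue is followed by fibrosis, was given into the trachea, and the lungs of the naïve library were left untreated. Cells of 3 mice were pooled in each library, with 1 library per group, so animal, library and treatment cannot be told apart and no comparison between the libraries had a replicate check. No p-value is given, and every interval is a 95% interval that covers counting error only.

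Macrophages clear lipoproteins, dying cells and, in the alveoli, surfactant lipid. Scavenger receptors and lipases bring fatty acids and cholesterol into the cell, an acyltransferase and droplet-coat proteins hold them as esters in lipid droplets, a lysosomal lipase frees cholesterol again, and the transporters ABCA1 and ABCG1 pass it to apolipoproteins under the control of liver X receptors. Cells that take up more than they release become foamy, a known feature of macrophages in injured lung. Cd36 (chr5:17781690-17888801) and Msr1 (chr8:39581685-39642673) encode scavenger receptors, and Lpl (chr8:68880491-68907448) encodes lipoprotein lipase. Plin2 (chr4:86648386-86670060) encodes a coat protein of lipid droplets and Soat1 (chr1:156424525-156474331) the enzyme that esterifies cholesterol for storage. Lipa (chr19:34492318-34527474) encodes lysosomal acid lipase. Abca1 (chr4:53030787-53159895) and Abcg1 (chr17:31057675-31117988) encode cholesterol exporters, Apoe (chr7:19696109-19699188) the apolipoprotein that macrophages secrete, and Nr1h3 (chr2:91184061-91202834) the nuclear receptor LXR alpha. All 10 are protein-coding genes, placed here on the mouse build GRCm38.

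The promoter windows of Cd36, Plin2 and Apoe are shown because the levels of these genes differed past 2-fold between the libraries in alveolar macrophages, as did those of Msr1 and Abcg1. Each runs from 250 bases before to 50 after a start site in RefSeq (GRCm38.p6) and is printed 5′ to 3′ on the minus strand, with capitals for the motifs AGGTCA (nuclear receptor half-site), CACGTG (E-box), GAGGAA (ETS core) and GGGCGG (GC box) on either strand.
Cd36, chr5:17835847-17836146: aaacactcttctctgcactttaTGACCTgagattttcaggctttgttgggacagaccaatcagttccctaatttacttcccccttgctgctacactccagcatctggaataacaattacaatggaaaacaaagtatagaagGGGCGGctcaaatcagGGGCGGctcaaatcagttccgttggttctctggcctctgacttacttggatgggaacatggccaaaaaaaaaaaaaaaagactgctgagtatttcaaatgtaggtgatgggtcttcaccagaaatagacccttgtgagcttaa
Plin2, chr4:86670010-86670309: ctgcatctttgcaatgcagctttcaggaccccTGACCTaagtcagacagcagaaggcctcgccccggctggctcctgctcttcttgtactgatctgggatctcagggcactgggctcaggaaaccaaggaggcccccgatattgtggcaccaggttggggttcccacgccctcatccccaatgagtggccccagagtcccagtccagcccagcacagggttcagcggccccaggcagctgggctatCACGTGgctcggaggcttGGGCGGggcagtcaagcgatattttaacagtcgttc
Apoe, chr7:19699139-19699438: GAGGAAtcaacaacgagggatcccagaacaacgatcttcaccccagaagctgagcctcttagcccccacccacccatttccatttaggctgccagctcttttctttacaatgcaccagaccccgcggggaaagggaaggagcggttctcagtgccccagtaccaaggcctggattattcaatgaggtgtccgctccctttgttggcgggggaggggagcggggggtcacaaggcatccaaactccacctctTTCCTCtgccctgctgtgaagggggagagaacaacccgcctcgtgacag
The Cd36 window held 1 half-site and 2 GC boxes, the Plin2 window 1 half-site, 1 E-box and 1 GC box, and the Apoe window 2 ETS cores. Apoe has 3 windows in RefSeq, and those not shown held 0 and 1 ETS cores. The Plin2 and Apoe windows shown overlap the start of the gene span given above, while the Cd36 window lies inside its span. Of all 32851 windows, 16.3% held the half-site, 7.15% the E-box, 28.3% the ETS core and 35.7% the GC box. Msr1, Lpl and Abcg1 were not matched to a window. The other 7 genes had 10 windows in all, of which 2, 2, 4 and 5 held these motifs in the same order. A match is a run of letters, and binding was not measured.

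After filtering and removal of doublets, 4391 BLM cells (median 2380 UMIs) and 3808 naïve cells (median 2697.5 UMIs) were kept. Clusters, formed without the 10 genes, were named from marker genes. They gave 462 BLM and 574 naïve alveolar macrophages, and 501 and 139 macrophages marked by C1q genes, here C1q macrophages, the markers of interstitial macrophages. There were 146 and 177 classical monocytes, 191 and 238 nonclassical monocytes, and 997 and 453 neutrophils. Levels are UMIs of a gene per 1000000 UMIs of the summed class (CPM). UMIs carry no gene length, so levels are compared for the same gene between classes and libraries and not between genes. A difference of library make-up also enters each library total, so cell numbers and RNA per cell cannot be told apart there, and levels are given within classes. The libraries shared 17 cell barcodes among the kept cells.

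The alveolar and C1q classes together held most UMIs of each of the 10 genes, except Msr1 and Apoe in the naïve library. Cycling cells, whose cluster scored highest for alveolar macrophage markers, were counted apart. They held 13.2% of Msr1 and 4.03% of Apoe in BLM, and 4.41% and 2.15% in the naïve library. The exception rests on leaving these cells out. Alveolar and C1q macrophages together made up 21.9% of the BLM cells and held between 68.0% (Cd36) and 88.8% (Apoe) of each gene's UMIs. In the naïve library they made up 18.7% of cells and held between 47.7% (Msr1) and 87.8% (Lpl). Naïve Msr1 lay in monocytes as well, with 27.4% of its UMIs in classical and 16.8% in nonclassical monocytes. Naïve Apoe likewise had 26.8% in nonclassical monocytes, against 1.55% in BLM. That class made up 6.25% of naïve and 4.35% of BLM cells, with Apoe at 996 and 888 CPM. All naïve cells together held 4143 Apoe UMIs and all BLM cells 29461.

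**Figure D1:**
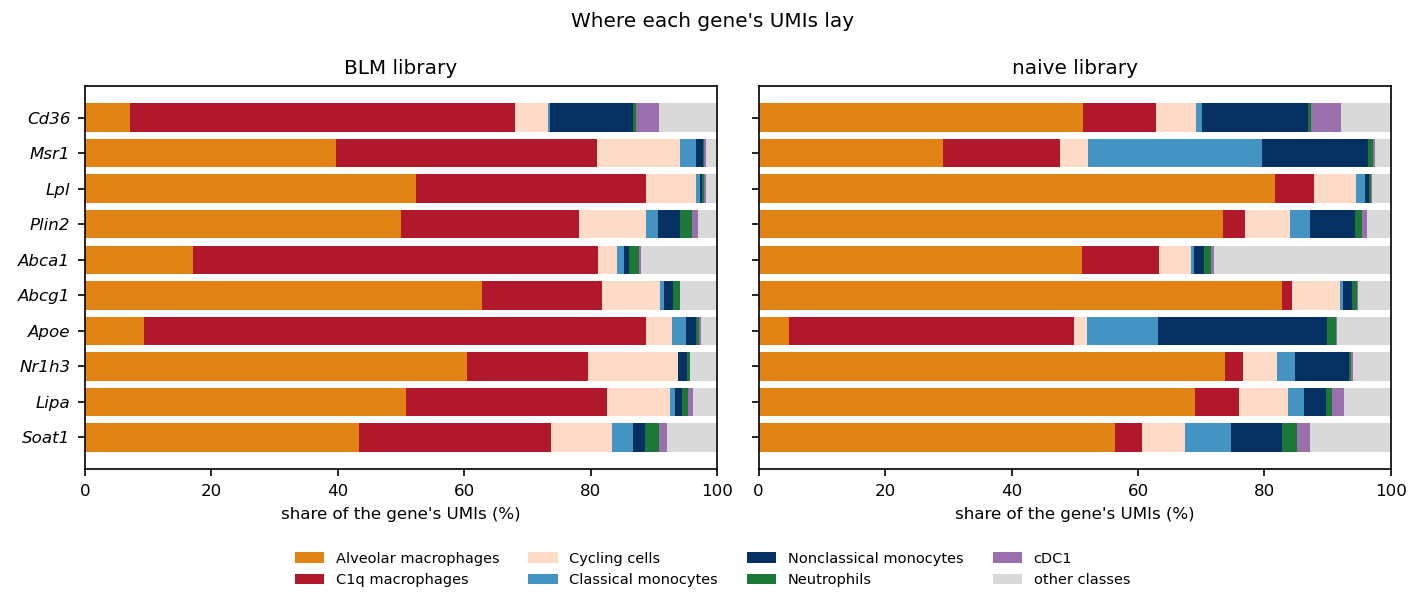
Share of each gene's UMIs (%) in each class, as stacked bars that sum to 100%, for the BLM library (left) and the naïve library (right). C1q macrophages held 60.9% of Cd36 and 79.4% of Apoe in BLM, against 11.5% and 45.0% in the naïve library. The class itself made up 11.4% of BLM and 3.65% of naïve cells, so these shares also carry cell numbers. Its Cd36 level was 588 CPM in BLM and 922 in naïve.

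With each cell thinned to 1000 UMIs, alveolar macrophages had UMIs of a mean of 3.25 of the 10 genes per cell in BLM and 3.83 in the naïve library. C1q macrophages had 3.04 and 2.50, nonclassical monocytes 2.17 and 2.26, and classical monocytes 1.73 and 1.82. Neutrophils had 0.481 and 0.696, close to the 0.664 and 0.694 of B cells. The sum of B, T and NK cells gave the level that free RNA and low expression can reach in cells that are not expected to use most of these genes. That lymphocyte level was 19.2 CPM in BLM and 59.1 in naïve for Cd36, 107 and 50.1 for Apoe, 13.1 and 2.81 for Msr1, 63.9 and 106 for Abcg1, and 88.0 and 109 for Lpl. The median depth was 2084 and 2147.5 UMIs in lymphocytes, 12660 and 9953.5 in alveolar macrophages, and 9322 and 5284 in C1q macrophages.

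**Figure D2:**
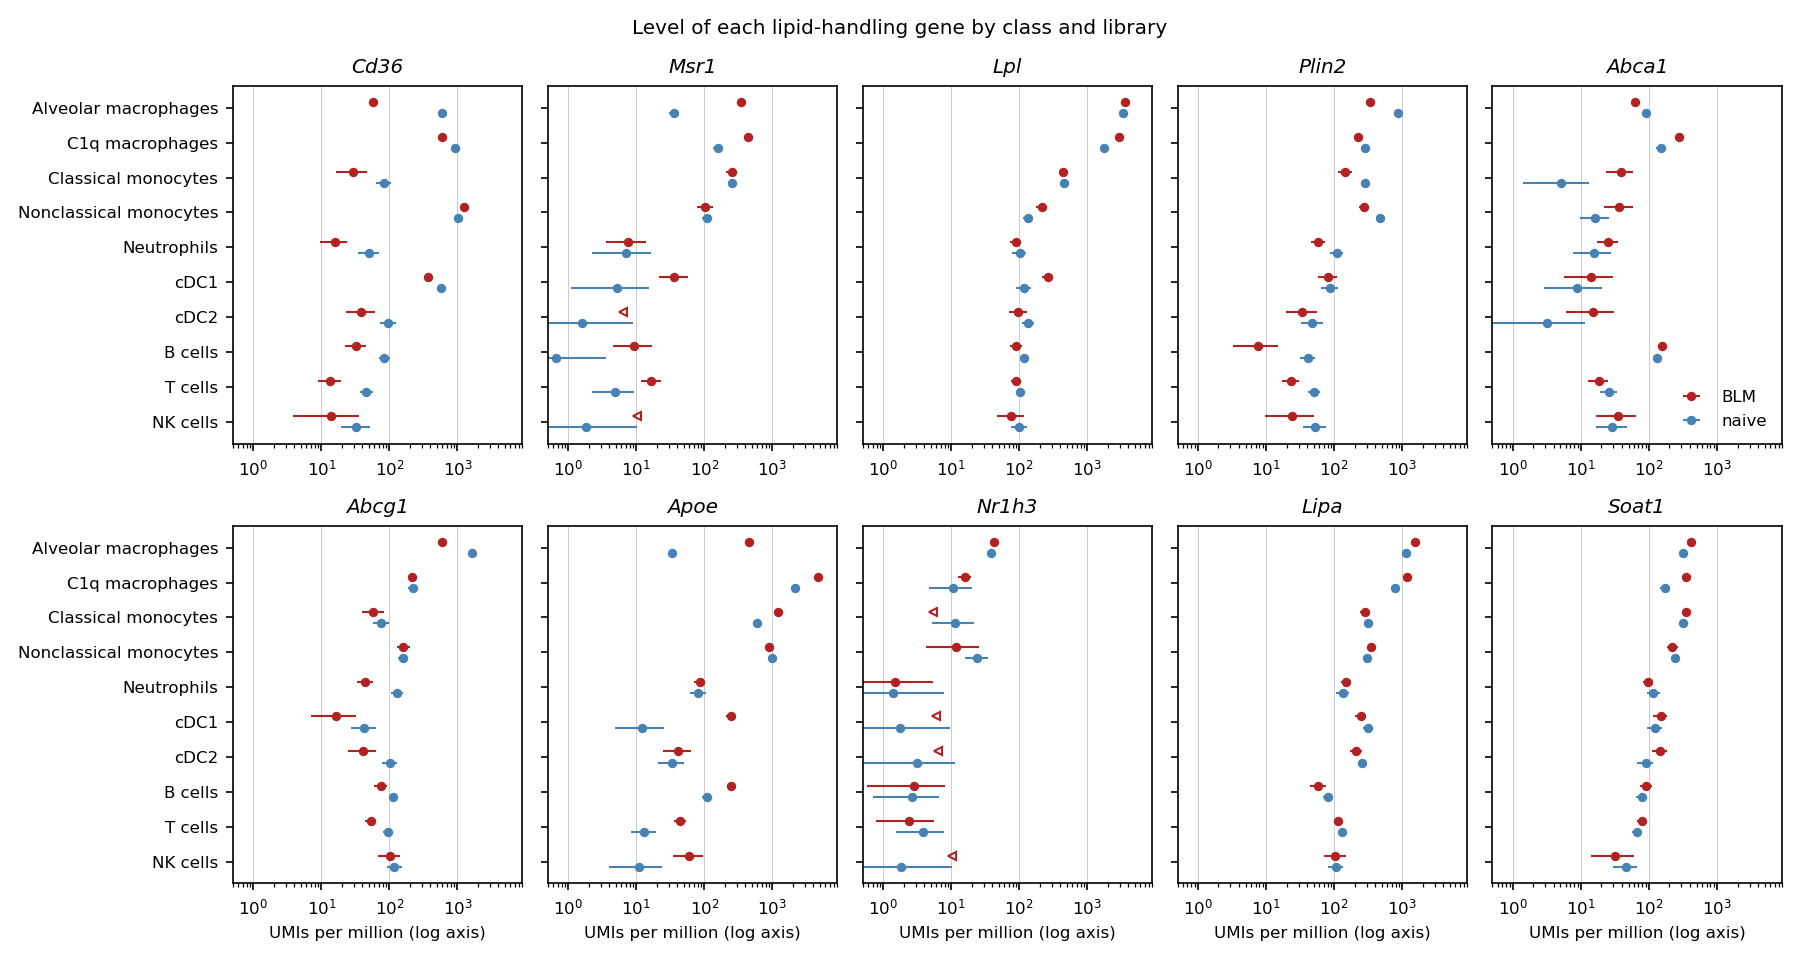
Level of each gene (CPM, UMIs per 1000000; log axis) in 10 classes for the BLM library (red) and the naïve library (blue), with exact Poisson 95% intervals; open triangles mark the level that 0 UMIs allow (3 counts). Lpl stood at 3528 and 3371 in alveolar macrophages and Abca1 at 157 and 130 in B cells.

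Among alveolar macrophages, the 2 scavenger receptors moved in opposite directions. The Cd36 level was 57.6 CPM (51.7 to 64.0) in BLM and 591 (572 to 611) in the naïve library, 10.3-fold lower in BLM, a log2 ratio of -3.36 (-3.52 to -3.20). With cells gated by marker UMIs it was -2.37. That gate split all cells of the alveolar, C1q and cycling clusters by the larger marker sum. It gave 621 BLM and 704 naïve alveolar macrophages. Cells later sub-clustered as T cells, cDC1 or plasma cells were not taken out of it. Msr1 was at 348 (333 to 363) in BLM and 35.3 (30.7 to 40.4) in naïve, 9.86-fold higher, a log2 ratio of 3.30 (3.10 to 3.51). A Cd36 UMI was found in 30.3% of BLM and 93.0% of naïve cells, and an Msr1 UMI in 90.3% and 24.7%. Thinned to 1000 UMIs, these shares were 4.33% and 40.7% for Cd36 and 27.6% and 3.33% for Msr1, against 1.76% and 5.23%, and 1.28% and 0.266%, in lymphocytes. Lpl did not pass 2-fold, with 3528 and 3371.

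The storage gene Plin2 was lower in BLM alveolar macrophages, at 336 (322 to 351) against 883 (860 to 907), a log2 ratio of -1.39 (-1.47 to -1.32). The exporter Abcg1 was lower as well, at 589 (570 to 608) against 1647 (1615 to 1680), a log2 ratio of -1.48 (-1.54 to -1.43). Its partner Abca1 was at 61.9 and 90.7, a log2 ratio of -0.55 that did not pass 2-fold. Apoe, in contrast, was at 455 (438 to 473) in BLM and 33.3 (28.8 to 38.2) in naïve, a log2 ratio of 3.77 (3.57 to 3.99). Its naïve level was below the 109 of naïve B cells and above the 13.1 of T cells and 10.9 of NK cells. The BLM Apoe level was uneven between cells: the median cell held 1 UMI, the highest 147, and the 47 cells with the most UMIs held 70.8% of them. For Abcg1, the 47 cells with the most UMIs held 27.3%. Nr1h3 (42.1 and 39.0), Lipa (1549 and 1128) and Soat1 (419 and 318) did not pass 2-fold.

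Past 2-fold here means a ratio of at least 2 whose interval excludes equality, among genes with at least 20 UMIs over both sides. By this rule 2 of the 10 genes were higher in BLM alveolar macrophages, where 5.63% of 10501 genes were, and 3 were lower, where 9.46% were. The median log2 ratio of the 10 genes was 0.09, and that of all genes tested was -0.20. It was -0.10 in C1q macrophages and -0.11 in neutrophils, and centring on it left the counts of the 10 genes the same.

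The cells of this class were unlike in the 2 libraries. All 10 leading genes of the cluster differed more than 2-fold between them, all lower in BLM. The alveolar macrophage marker Siglecf was at 86.6 in BLM and 341 in naïve, and Krt79 at 12.2 and 499, while Marco (236 and 352) and Chil3 (10480.5 and 11412) were closer. All 8 alveolar markers were above 0 in both, with a summed level of 13731 and 17125. Most of that sum was Chil3 in both libraries, so it says little about the other markers. The markers Ear1 and Krt19 were among the leading genes lower in BLM, with log2 ratios of -3.54 and -4.62. The C1q list (7 of 7 above 0 in both) summed to 905 and 348, the classical monocyte list (6 of 6) to 4113 and 488, and Spp1, which encodes osteopontin, was at 5904 and 238. The part of this difference in the lipid genes was not tested. When the libraries were clustered without integration, 618 naïve cells and 1 BLM cell formed the alveolar cluster. A separate cluster of 604 BLM and 2 naïve cells, led by Spp1, Cspg4 and Syngr1, had Cd36 at 96.1, Msr1 at 392, Plin2 at 320, Abcg1 at 537 and Apoe at 2084, against 597, 36.1, 884, 1634 and 41.7 in the naïve alveolar cluster. In the 204 BLM and 523 naïve alveolar macrophages with a Siglecf UMI, a limit chosen after the data were seen, the log2 ratios were -3.23 for Cd36, 3.15 for Msr1, -1.36 for Plin2, -1.43 for Abcg1 and 3.27 for Apoe. In the 85 and 448 cells without a C1q UMI, that of Apoe was 1.78 and the others lay between -3.38 and 3.04. Abca1 was past 2-fold and lower in BLM in these cells, with a log2 ratio of -1.19.

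**Figure D3:**
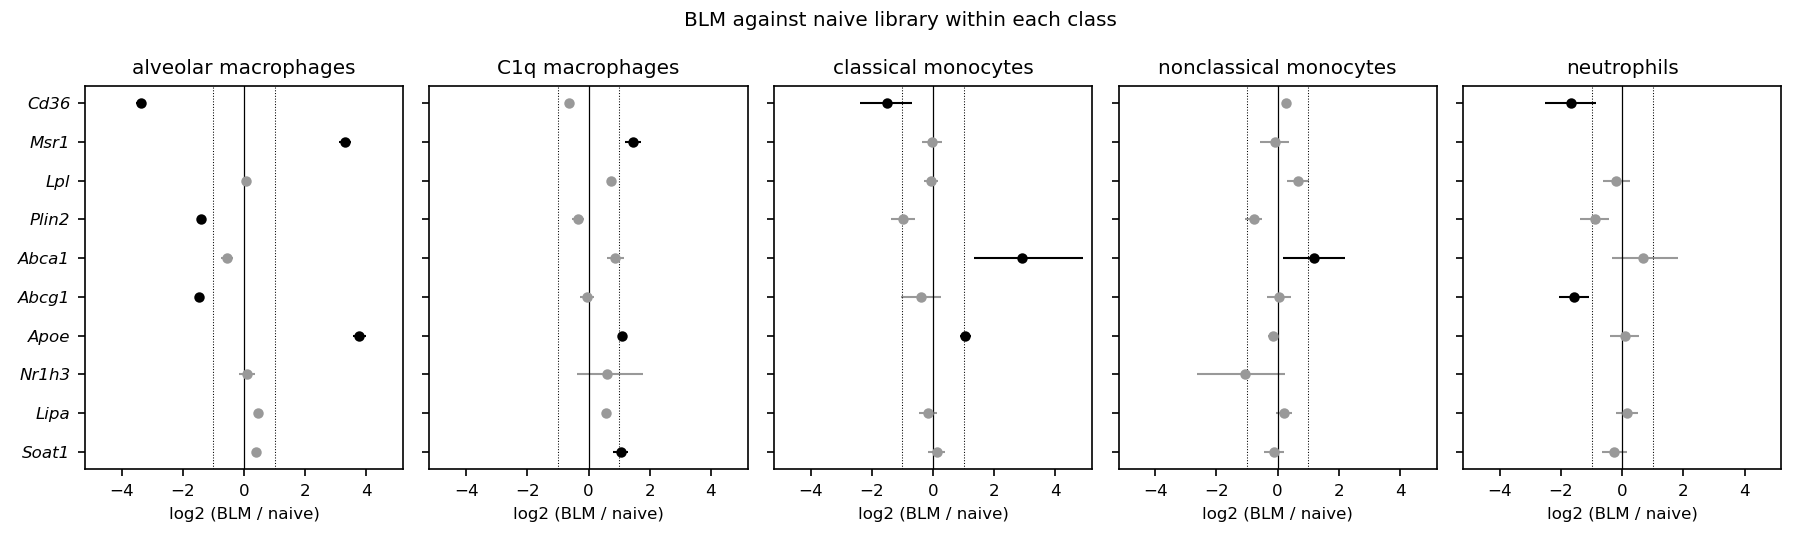
Log2 ratio of each gene, BLM over naïve, within 5 classes, with exact 95% intervals; black points are past 2-fold, grey points are not, dotted lines mark a 2-fold difference, and genes with fewer than 20 UMIs are left out. In alveolar macrophages Msr1 and Apoe lie right of the lines at 3.30 and 3.77, and Cd36, Plin2 and Abcg1 lie left at -3.36, -1.39 and -1.48.

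In C1q macrophages, Msr1, Apoe and Soat1 were past 2-fold and higher in BLM. Msr1 was at 432 (414 to 450) and 157 (132 to 186), a log2 ratio of 1.46 (1.21 to 1.72). Apoe was at 4616 (4557 to 4675) and 2173 (2075 to 2274), a log2 ratio of 1.09 (1.02 to 1.16). Soat1 was at 351 (335 to 368) and 170 (144 to 200), a log2 ratio of 1.05 (0.80 to 1.30). None of the 10 was past 2-fold and lower in the class as reported. The shares of all 9679 genes tested were 3.73% higher and 8.69% lower. Cd36 was at 588 and 922, a log2 ratio of -0.65, but its ratio was past 2-fold and lower without integration (-1.88) and with cells gated by marker UMIs (-1.03). Thinned to 1000 UMIs, 17.9% and 42.5% of the cells had a Cd36 UMI. In BLM the median cell held 0 Cd36 UMIs and 51 of 501 cells held 82.2% of them, so the class level rested on few cells. Lpl was at 2932.5 and 1749, a log2 ratio of 0.75. Abca1 had 276 and 150, and Lipa 1163 and 789. Plin2 (226 and 285), Abcg1 (213 and 219) and Nr1h3 (81 and 9 UMIs) did not pass it either.

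The Apoe result depended on which cells were counted as C1q macrophages. Without integration the class also took in the Spp1-led BLM cluster, and the Apoe log2 ratio became -0.30. Within the cluster led by Retnla, Ccl24 and Pf4 of that clustering, with 357 BLM and 91 naïve cells, Apoe was at 2910 and 2966 and Msr1 at 361 and 194. With cells gated by their marker UMIs the Apoe log2 ratio of the class was 0.68, and with equal weight for each cell 0.79. As reported, 7 of 10 leading genes of the class differed more than 2-fold, and Spp1 was at 5192 in BLM and 65.2 in naïve. The C1q list summed to 5668 and 6208 there. The classical monocyte list (6 of 6 above 0 in both) summed to 6025 and 3995, higher in BLM, against 7924 and 8841 in classical monocytes. The cDC2 list (5 of 5) summed to 505 and 1728, and the neutrophil list (6 of 6) to 217 and 665, both lower in BLM. The part of these lists in the lipid genes was not tested.

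Cells of the alveolar, C1q and cycling clusters were then clustered again by themselves, and the sub-clusters are called by their leading genes. The sub-cluster led by Plac8 and Mefv scored highest for classical monocyte markers and is kept among those shown. The one led by Epcam and Fpr2 was named as epithelial cells from 1 leading gene, although alveolar macrophage markers scored higher in it. The one led by Mmp12 and Dcstamp had no name. Both are also kept among those shown. A cycling sub-cluster, and those named as T cells, cDC1 or plasma cells, are not shown. In BLM, Cd36 was highest in the sub-cluster led by Mmp12 and Dcstamp, at 1004 (964 to 1046) over 197 cells, and between 24.2 and 247 in the 5 others shown. A Cd36 UMI was found in 91 of these 197 cells, so the level rested on part of them. Apoe was highest in the one led by Syngr1 and Olfml3, at 6695 (6585 to 6805) over 161 cells, and in the one led by Lyve1 and Ccl8, at 6279 (6096 to 6466) over 85 cells. The Syngr1-led cells held Spp1 at 13864.5 and C1qa at 1280. The Lyve1-led cells held C1qa at 2436 and Lpl at 730, against 3138 to 3909 for Lpl in the sub-clusters led by Epcam, Marco, Mmp12 and Syngr1. Apoe was lowest in the Marco-led cells, at 135, which had the highest Plin2 (417), Abcg1 (672) and Nr1h3 (53.9). Apoe and Cd36 thus peaked in different sub-clusters in BLM. A cluster against the others is no test, and these levels are descriptions.

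**Figure D4:**
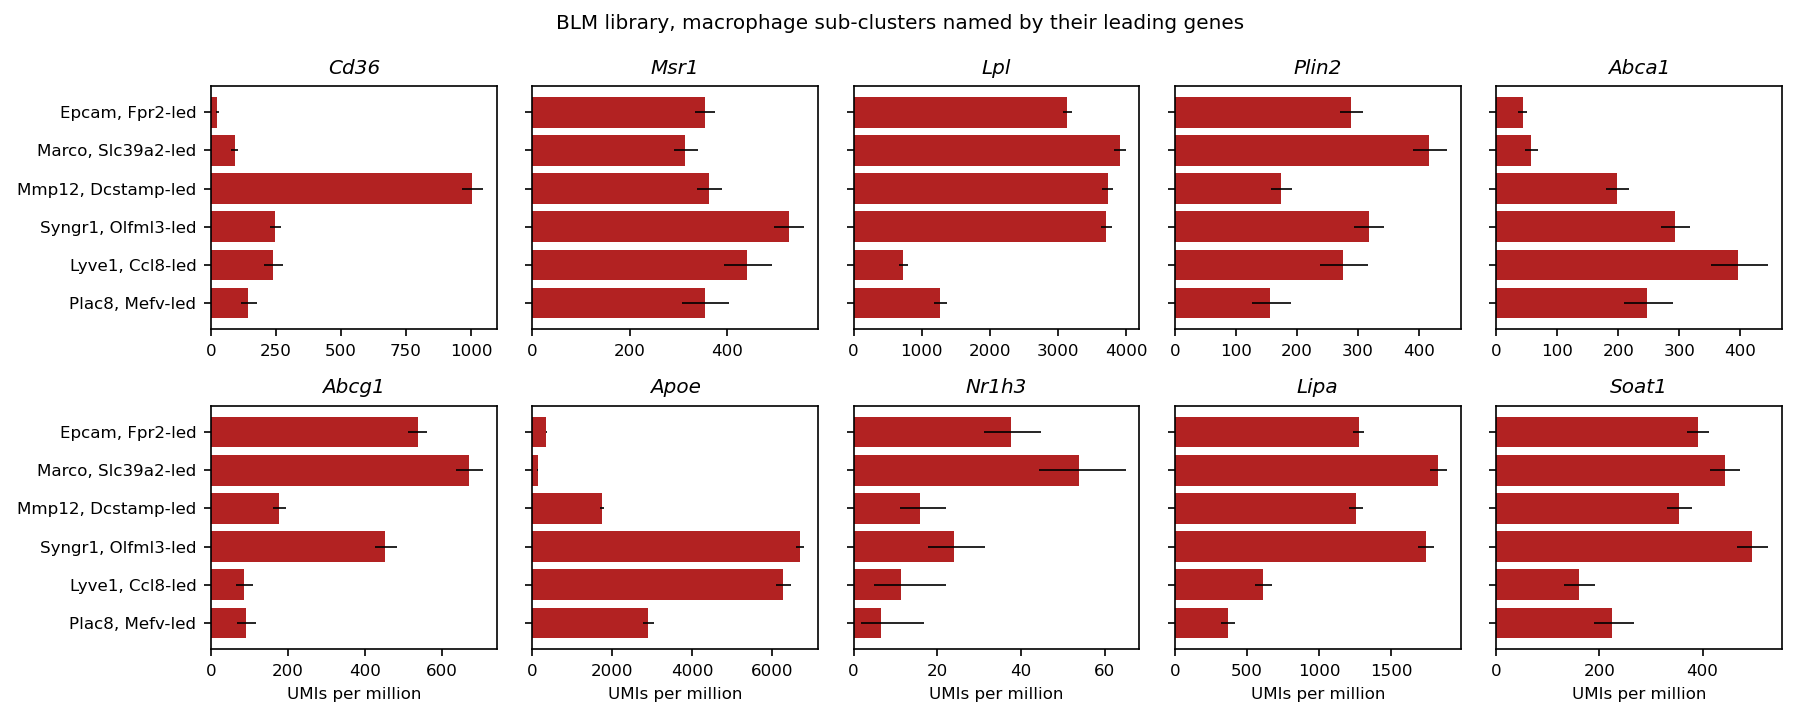
Level of each gene (CPM, UMIs per 1000000; axis from 0) in 6 sub-clusters of the macrophage clusters in the BLM library, with exact Poisson 95% intervals. The Plac8- and Mefv-led cells scored highest for classical monocyte markers. The Epcam-led cells were named as epithelial cells and the Mmp12-led cells had no name. Cd36 peaked at 1004 in the Mmp12- and Dcstamp-led cells and Apoe at 6695 and 6279 in the Syngr1- and Lyve1-led cells.

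The Lyve1-led sub-cluster held both libraries, with 85 BLM and 69 naïve cells, and its C1qa level was 2436 and 2600. There Cd36 was at 237 (203 to 276) in BLM and 1369 (1251 to 1495) in naïve, lower in BLM as in the alveolar class. Apoe was at 6279 and 4535 and Msr1 at 439 and 290, both higher in BLM, also as in the alveolar class. Plin2 was at 275 (238 to 316) and 155 (117 to 201), higher in BLM, the reverse of the alveolar class. Abca1 was at 397 and 315, and Lpl at 730 and 704. Abcg1 was at 85.6 and 108, Soat1 at 160 and 105 and Lipa at 615 and 536, and Nr1h3 had 8 and 2 UMIs. The intervals of the 2 libraries overlapped for Lpl, Abca1, Abcg1, Soat1, Lipa and Nr1h3. The share of all genes with such an overlap was not taken in these cells. In the Syngr1-led sub-cluster the naïve cells held Krt79 at 434 and C1qa at 16.3, where the BLM cells held 0 and 1280, so its libraries are not compared.

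In both libraries the macrophage classes differed in Abcg1, Nr1h3 and Apoe. In the naïve library, Abcg1 was at 1647 in alveolar and 219 in C1q macrophages, a log2 ratio of 2.91 (2.70 to 3.13), and Plin2 at 883 and 285, a log2 ratio of 1.63 (1.44 to 1.82). Nr1h3 was higher in alveolar macrophages by 1.89 on the log2 scale, but on 9 UMIs in C1q macrophages. Apoe was the reverse, at 33.3 and 2173, a log2 ratio of -6.03 (-6.25 to -5.82), as was Msr1, at 35.3 and 157. So 3 genes were higher and 2 lower, where 12.6% and 10.6% of all genes tested were. In BLM, Abcg1 and Nr1h3 were again higher in alveolar macrophages, by 1.47 and 1.40, and Cd36, Abca1 and Apoe were lower, by log2 ratios of -3.35, -2.16 and -3.34. These 2 and 3 genes stand beside 5.62% and 7.94% of genes. Cd36 and Abca1 were past 2-fold between the classes in BLM but not in the naïve library (-0.64 and -0.73), and Plin2 and Msr1 were past it in the naïve library but not in BLM (0.57 and -0.31). The difference between the libraries in these ratios was not tested, and both use the levels given above.

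**Figure D5:**
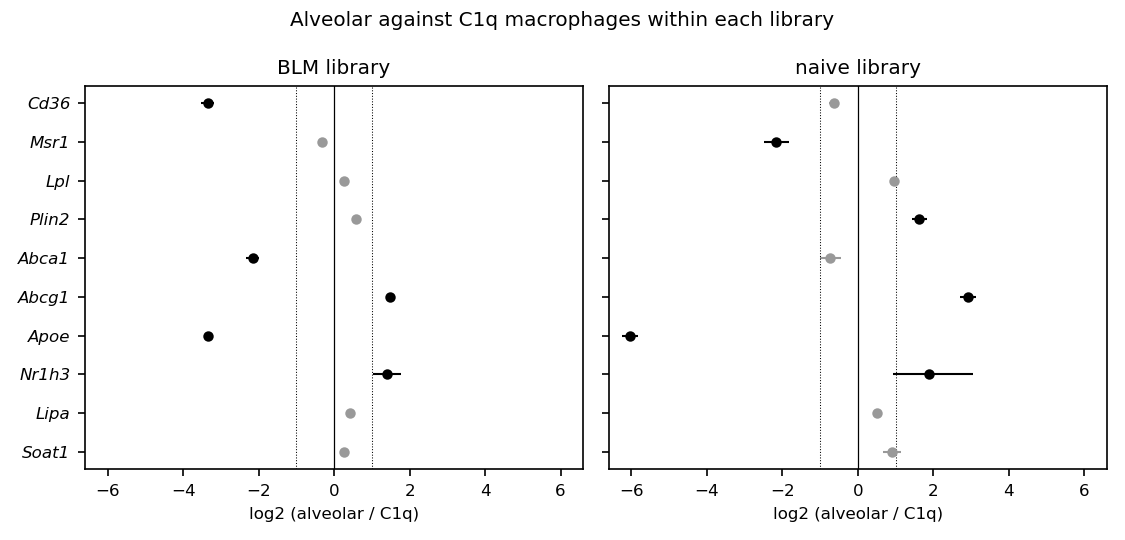
Log2 ratio of each gene, alveolar over C1q macrophages, in the BLM library (left) and the naïve library (right), with exact 95% intervals; black points are past 2-fold and dotted lines mark it. Abcg1 lies to the right in both, at 1.47 and 2.91, and Apoe to the left, at -3.34 and -6.03.

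Against classical monocytes, the blood-derived cells that can become macrophages, C1q macrophages carried more of most of the 10 genes. In BLM 7 of 10 were past 2-fold and higher and 0 lower, where 12.5% and 9.04% of genes were. In the naïve library 6 of the 9 genes tested were higher and 0 lower, where 13.3% and 6.55% were. Cd36, Lpl, Abca1, Abcg1, Apoe and Lipa were higher in both. In BLM, Cd36 was at 588 against 29.1, a log2 ratio of 4.34 that was 1.33 without integration, and Lpl at 2932.5 against 440. Nr1h3 had 81 UMIs in BLM C1q macrophages and 0 in classical monocytes, which allows up to 5.46 CPM. Msr1 and Plin2 were not past 2-fold in either library. Nor was Soat1, at 351 and 349 in BLM and 170 and 321 in naïve.

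Monocytes were compared between the libraries in the same way. In classical monocytes 3 of 9 genes were past 2-fold, where 6.77% of 6030 genes were. Apoe was at 1226 (1135 to 1322) in BLM and 592 (539 to 649) in naïve, a log2 ratio of 1.05 that was past 2-fold under 7 of 8 alternatives. In the same cells the C1q marker list (7 of 7 above 0 in both) summed to 1028 and 543, and the alveolar list (6 and 8 of 8) to 2510 and 1662, and their part in the Apoe difference was not tested. Abca1 had 21 and 4 UMIs, a log2 ratio of 2.89 with an interval from 1.33 to 4.90. Cd36 was at 29.1 and 82.2, near the lymphocyte level in both, and its log2 ratio of -1.50 became 0.30 without integration. In nonclassical monocytes, which patrol vessels, only Abca1 was past 2-fold, on 19 and 18 UMIs, where 4.74% of 6599 genes were. Cd36 was at 1251 (1156 to 1351) and 1033 (975 to 1095) there, its highest level in any named class of each library, and Apoe at 888 and 996. The next Cd36 level was that of C1q macrophages in both libraries, and in the naïve library alveolar macrophages (591) and cDC1 (570, 510 to 636) did not differ beyond their intervals. cDC1 are the dendritic cells that take up dead cells for cross-presentation. The cluster led by Col3a1, Bgn and Col1a1, which has no name here, had Cd36 at 986 and 1312 on 39 and 22 cells.

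In neutrophils Cd36 and Abcg1 were past 2-fold and lower, 2 of 8 genes tested, where 8.62% of 5521 genes were past it in either direction. Their levels, 15.7 and 50.1 for Cd36 and 44.0 and 131 for Abcg1, lay near those of lymphocytes, which were also lower in BLM. B cells were the only lymphocytes with Abca1 apart from the others, at 157 (134 to 183) in BLM and 130 (113 to 150) in naïve, against 18.1 and 25.7 in T cells and 34.7 and 29.1 in NK cells. Thinned to 1000 UMIs, 14.3% and 12.1% of B cells had an Abca1 UMI, against 1.83% and 2.45% of T cells.

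A wider list of 56 lipid-handling genes, of which 55 were in the tables, was measured beside the 10. In alveolar macrophages 7 of 49 tested were past 2-fold and higher in BLM and 9 lower, where 5.63% and 9.46% of all genes were. Among uptake genes 3 of 10 were higher and 0 lower. Trem2, a lipid-sensing receptor of phagocytes, was at 191 and 43.3. Among storage genes 4 of 8 were lower. Cidec, which fuses lipid droplets, was at 14.4 and 407, a log2 ratio of -4.82 (-5.15 to -4.52), G0s2, an inhibitor of triglyceride lipase, at 7.75 and 43.2, and Lpin1, a phosphatase of triglyceride synthesis, at 129 and 399. Hilpda, a droplet protein that also inhibits the lipase, went the other way, at 1153 and 573. Mgll, which cleaves monoglycerides, was at 99.8 and 247, and was 1 of 3 lower among 10 genes of hydrolysis and lysosomal export. Mylip, a ubiquitin ligase under the control of liver X receptors, was at 28.4 and 92.3. Acsl3, which activates fatty acids, had 66 and 8 UMIs, and Scd2, a fatty acid desaturase, was at 129 and 49.0.

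In C1q macrophages 8 of 49 of the wider list were past 2-fold and higher in BLM and 7 lower, where 3.73% and 8.69% of all genes were. Trem2 was at 384 and 85.1, a log2 ratio of 2.18 (1.84 to 2.53), Hilpda at 769 and 227, and Fabp5, a fatty acid carrier, at 1157 and 370. Olr1, a receptor for oxidised lipoprotein, was at 238 and 78.1, and Fabp3, another carrier, had 45 and 0 UMIs. Trem2 and Hilpda were thus past 2-fold and higher in both macrophage classes. Hilpda in alveolar macrophages was only just past it, with a log2 ratio of 1.01 (0.95 to 1.07). Cidec had 2 and 40 UMIs, and Mgll was at 10.7 and 46.6. Pltp, which transfers phospholipid between lipoproteins, was at 250 and 757, the transporter Abca9 at 55.8 and 167, and Cyp27a1, which makes an oxysterol, at 23.9 and 55.9. Pparg, a nuclear receptor of alveolar macrophages, was not past 2-fold in either class, with 110 and 208 in the alveolar and 22.1 and 24.5 in the C1q class. Over the wider list the median log2 ratio was -0.08 in alveolar and 0.08 in C1q macrophages, beside -0.20 and -0.10 over all genes.

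Over 12 classes in 2 libraries, 24 points that share library and depth, the genes with the most similar pattern were named by Pearson's r of log2 levels among 9495 genes. Cd36 was nearest to Cdc42bpb, Smagp and Jup (r between 0.76 and 0.82). Msr1 was nearest to Esd, Fn1 and Fabp7 (r between 0.89 and 0.91). Lpl was nearest to Cav2, Camk1 and Itgb5 (r = 0.94 for each). Plin2 was nearest to Tusc1, Mapk3 and Sort1 (r between 0.90 and 0.91). Abca1 was nearest to Rreb1, Clcn7 and Blvrb (r between 0.70 and 0.74). Abcg1 was nearest to Rit1, Mcoln3 and Slc39a2 (r between 0.90 and 0.91). Apoe was nearest to Lgmn (r = 0.85). Nr1h3 was nearest to Myo7a, Abhd12 and Tcf7l2 (r between 0.88 and 0.90). Lipa was nearest to Slc39a1, Myof and Cebpa (r between 0.95 and 0.96). Soat1 was nearest to Asah1, Lyz2 and Capza2 (r between 0.91 and 0.93). Among the 10 genes, Lpl and Lipa were most alike (0.93) and Plin2 and Abca1 least (0.11).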

How the data were processed

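The authors processed the reads of each library with the BD Rhapsody pipeline 1.8 on GRCm38 with GENCODE M19 and deposited raw UMI counts per cell and gene, corrected for UMI errors, 1 table per library. A gene absent from a table was taken as 0. Cells with fewer than 200 genes or over 15% mitochondrial UMIs were left out, as were the 3% with the highest Scrublet doublet scores in each library (135 and 117 cells), since the automatic limit marked 0.199% and 1.38%. Cells were integrated and clustered in Seurat 5.3.0 (2000 variable genes without the lipid genes, 30 dimensions, resolution 0.5). Clusters were named from fixed markers. A cluster led by Dgat1 of low depth and a stromal cluster stayed unnamed.

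UMIs were summed per class and library, with exact Poisson intervals for levels, exact conditional binomial intervals for ratios and Clopper-Pearson intervals for shares of cells. The ratio and its interval were tested on simulated Poisson counts, the model that the interval assumes. Uneven levels between cells were not simulated, so that test does not cover them. With 1 library per group there was no test. Named genes of the wider list were the 5 highest and 5 lowest in each macrophage class by the interval end nearer 0, apart from Pparg, named after its values were seen. The 10 genes and all lists were chosen with earlier results of these data known. The 3% doublet share, the low-depth rule and the limits by Siglecf and C1q UMIs were set after the data were seen. Some genes that these rules would name are not reported here.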

Additional observations from a re-analysis of the deposited data

Results flagged for a closer look

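Cd36, Abca1 and Apoe had log2 ratios of BLM over naïve whose intervals lay above 0 in some classes and below 0 in others. The differences between classes were not tested. For Cd36 the log2 ratio was 0.28 in nonclassical monocytes, and -3.36 in alveolar macrophages, -0.65 in C1q macrophages, -1.50 in classical monocytes and -1.68 in neutrophils. For Abca1 it was 0.87 in C1q macrophages, 2.89 in classical monocytes and 1.19 in nonclassical monocytes, and -0.55 in alveolar macrophages. For Apoe it was 3.77 in alveolar macrophages, 1.09 in C1q macrophages and 1.05 in classical monocytes, and -0.17 in nonclassical monocytes. Some of these signs turned with the processing. In nonclassical monocytes the Cd36 log2 ratio ranged from -0.05 to 0.57 and the Apoe log2 ratio from -0.39 to 0.36 over 9 alternatives, with -0.05 and 0.36 at resolution 0.3. The Abca1 log2 ratio in C1q macrophages was -0.38 without integration.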

How the results depend on the processing

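No paired analysis was possible because each group had 1 library. Counts below are genes of the 10 past 2-fold. Without integration, there were 6 in place of 3 in C1q macrophages (5 higher, and Cd36 lower at -1.88), 1 in place of 3 in classical monocytes and 2 in place of 1 in nonclassical monocytes between the libraries. There the Apoe log2 ratio in C1q macrophages was -0.30 and the Cd36 log2 ratio in classical monocytes 0.30, both of opposite sign to the reported values. With cells gated by marker UMIs there were 5 in C1q macrophages (4 higher, and Cd36 lower at -1.03), and 8 in place of 5 between alveolar and C1q macrophages of the naïve library. Equal weight for each cell left 1 in C1q macrophages. In nonclassical monocytes there were 0 with doublets kept, 0 with a mitochondrial limit of 10% and 2 at resolution 0.3. The cause of these changes was not tested. The other counts stayed within 1.5 times. Of 359 values of ratios past 2-fold, 342 stayed past it and 17 did not, and 28 of 477 others passed it. No value was had for alveolar macrophages between the libraries, or for alveolar against C1q macrophages in BLM, without integration, nor for the 3 comparisons with classical monocytes at resolution 0.3. Each group had 1 library of pooled mice. Nr1h3 outside macrophages and Abca1 in monocytes rested on few UMIs.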
